A study of Arabidopsis thaliana with 12 samples.

Results

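Pentatricopeptide repeat (PPR) proteins of the P class were represented on the array by 6 listed genes, AT1G20130, AT1G79080, AT2G17670, AT2G19280, AT3G13150 and AT5G39980. A gene counted as measured where a probe's annotation named it and no other. Each of the 6 had 1 such probe and lay on no probe shared with another gene, so the set is 6 of 691 genes with a probe of their own and 6 of 3439 probes in all. The list was given by gene identity, with no threshold on measured values, but it was drawn up with earlier results of these data known. The sources used here give no description for these identifiers, and no protein sequence was used to check the class. As background knowledge, AT1G20130 is known as a locus of the GDSL esterase family, so its place among PPR genes is doubtful. It is kept below under its identifier, and counts are also given without it.

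PPR proteins are encoded in the nucleus and act in chloroplasts and mitochondria. They are built of a chain of short helical repeats, each of which can contact a base of an RNA strand, so that the chain reads a particular organelle transcript. P-class members, which carry plain repeats and lack the extra domains of the editing PPR proteins, are known for protecting RNA ends from degradation, for splicing and for helping translation. Chloroplast gene expression, and with it the making of photosynthetic complexes, depends on many such proteins. The RNA targets of the genes measured here are not given.

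The plants were wild-type Arabidopsis thaliana of the Landsberg ecotype, kept for 48 h in blue light of 200 µE in the bright group and 20 µE in the dim group, µE being shorthand for a photon flux. Each group had 6 samples of total RNA, numbered 1 to 6, with 1 column of array intensities in arbitrary units each. The labels name no tissue, plant age or number of plants, nor whether samples came from separate plants, so that p-values measure the spread between these columns, which may be technical. The question is whether the transcripts of these genes differ between plants in bright and in dim blue light.

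Columns of the groups were alike neither in scale nor in width. The interquartile range of log2 values was 3.31 to 3.75 in bright columns, against 2.12 to 2.16 in dim ones. The median of all probes lay between 0.171 and 0.218 units at 200 µE and between 0.401 and 0.574 units at 20 µE, and 16.5 to 18.3% of probes were listed at exactly 0 at 200 µE, against 12.4 to 14.3% at 20 µE. Each comparison is therefore given in deposited units and after quantile normalisation, which gives all columns the same distribution and so compares a gene's place within its column. In each group, neighbouring columns (1 with 2, 3 with 4, 5 with 6) deviated jointly from the group mean, with correlations of 0.264 to 0.821 within such a couple, against at most 0.162 between couples. Means ± SD are over the 3 couple averages of a group. "Fell" is used where limma, after quantile normalisation, gave an adjusted p under 0.05 for the 12 columns and also for the 3 couple averages per group. Markers of leaf mesophyll (0 of 9 with a probe of their own) and root (0 of 10) could not be used to check the tissue.

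Transcripts of AT5G39980 and AT3G13150 fell in bright blue light, and no listed gene rose. AT5G39980 was listed at 0 in every bright column, and AT3G13150 averaged 0.038 units in bright light, against 0.625 units in dim light. AT1G20130, AT1G79080 and AT2G17670 also had lower deposited intensities in every bright column than in any dim one, but after quantile normalisation they did not pass over couple averages. Of these, only AT1G20130 passed when bright and dim couples were matched by number, as a block. In deposited units every bright column lay below every dim one for 47% of all 1445 tested features, so that this separation is common on the array. AT2G19280 had nearly the same deposited intensity in both groups, and the direction of its change depended on the scaling. In total RNA of whole samples, fewer cells that make a transcript and less of it per cell cannot be told apart.

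**Figure D1:**
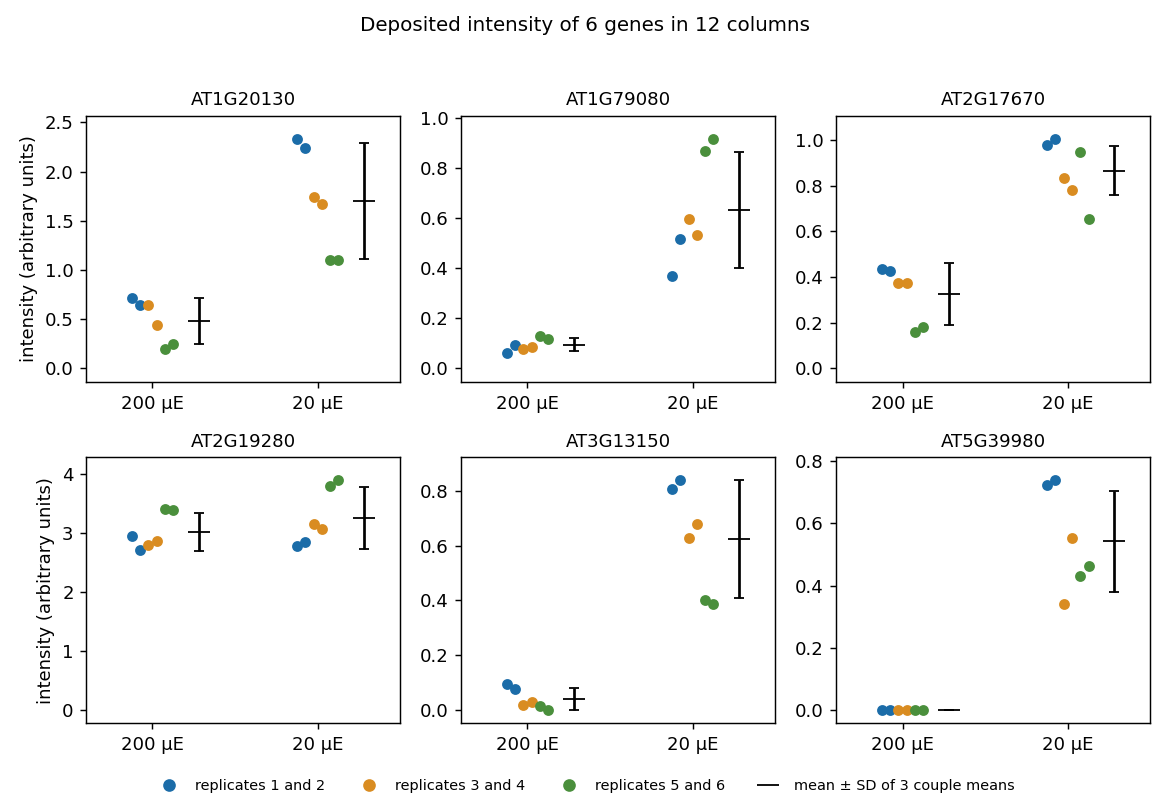
Deposited array intensity in arbitrary units (vertical axis, a scale of its own for each gene) of the 6 listed genes in the 6 columns at 200 µE and the 6 columns at 20 µE. Points are columns coloured by couple of replicate numbers, and black marks are the mean ± SD of the 3 couple averages. The groups overlap for AT2G19280 alone, and AT5G39980 lies at 0 in all 6 columns at 200 µE. Of all 1445 tested features, 47% had every bright column below every dim one.

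AT5G39980 showed the clearest difference. Its probe was listed at 0 in columns 1 to 6 at 200 µE, whereas at 20 µE the lowest column held 0.339 units, the median was 0.508 and the highest column held 0.739. The groups were thus fully apart, and no fold is given because a value listed at 0 in a table without counts has no known lower limit. In dim light the gene lay between the 33.5th and the 62.1st percentile of its column. After quantile normalisation the log2 change was -4.64 ± 0.22 (SE), and limma gave an adjusted p of 3.6e-08 for all columns and 0.0022 for the couple averages. The size of this change, and with it the rank below, rests on the floor set for zeros, and is no bound. That floor was 0.0040 to 0.0087 units in the bright columns. All bright columns stood at -6.24 after normalisation, so the SE and p-values hold no measured spread of bright columns. Ranked from the most negative change, AT5G39980 stood at place 3 of 641 single genes tested. Being at 0 in every bright column and above 0 in every dim one was shared by 21 of 1445 features, or 1.45%.

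AT3G13150 fell to near the low end of the scale. Bright columns 1 to 6 measured 0.095, 0.074, 0.017, 0.029, 0.015 and 0 units. Dim columns 1 to 6 measured 0.808, 0.840, 0.627, 0.681, 0.403 and 0.388 units. Every bright column lay below every dim one, and in both groups columns 1 and 2 were the highest and columns 5 and 6 the lowest. For the 5 numbers with a bright value above 0, the ratio of bright to dim intensity lay between 0.027 and 0.117, so that even the mildest pair differed by a factor of 8.52. The quantile-normalised log2 change was -2.67 ± 0.51 (SE; 95% interval -3.79 to -1.56), and limma gave an adjusted p of 0.0011 for all columns and 0.037 for the couple averages. Without bright column 6, the one at 0, the change was -2.23 (adjusted p = 0.00029). Its median place in the column was the 21.6th percentile in bright light, against the 55.5th in dim light.

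AT1G79080 was several-fold lower in bright light as deposited, but less so relative to the rest of its column. At 200 µE the lowest, median and highest columns held 0.059, 0.087 and 0.129 units. At 20 µE they held 0.366, 0.562 and 0.915 units. The groups did not overlap, and the ratio of bright to dim intensity was much alike in the 6 same-numbered pairs, at 0.127 to 0.179. The mean was 0.093 ± 0.026 units in bright light and 0.631 ± 0.233 units in dim light (SD, n = 3 couples), a factor of 6.81 in the deposited units.

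After quantile normalisation the change of AT1G79080 was -1.26 ± 0.40 (SE) on the log2 scale. It passed over 12 columns (limma, adjusted p = 0.018) but not over couple averages (adjusted p = 0.15, 95% interval -2.69 to 0.16). When bright and dim couples were matched by number, as a block, the adjusted p was 0.053. The call over 12 columns was lost too once bright and dim columns 3 and 4 were left out (adjusted p = 0.093). The normalised values overlapped: bright column 5 lay at -2.01 and dim column 1 at -2.38. In both groups columns 5 and 6 were the highest, at the 43.4th and 40.9th percentile in bright light and the 79.7th and 81.9th in dim light. All 6 same-numbered pairs were lower in bright light, with normalised log2 differences of -2.02 to -0.85. Under median centring the change of AT1G79080 was -1.39, which passed over 12 columns (limma, adjusted p = 0.0032) and over couple averages (limma, adjusted p = 0.044).

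AT1G20130, the locus of doubtful class, was lower in each bright column. At 200 µE the lowest, median and highest columns held 0.190, 0.537 and 0.718 units. At 20 µE they held 1.102, 1.705 and 2.334 units. Columns 1 and 2 were the highest and 5 and 6 the lowest in both groups, whereas for AT1G79080 columns 5 and 6 were the highest. Same-numbered bright to dim ratios lay between 0.172 and 0.368. The quantile-normalised change was -1.41 ± 0.29 (SE), past the threshold over 12 columns (limma, adjusted p = 0.0018), not over couple averages (adjusted p = 0.061) and again when couples were matched as a block (adjusted p = 0.030). Normalised columns did not overlap, at -1.57 to -0.24 in bright light and 0.17 to 1.28 in dim light. Under median centring the change was -0.57 and did not pass (adjusted p = 0.095).

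AT2G17670 had lower deposited intensity in bright light, while its place within the column differed between couples. Its percentile averaged 61.3 ± 10.1 in bright light and 71.7 ± 6.8 in dim light (SD, n = 3 couples). At 200 µE the lowest, median and highest columns measured 0.159, 0.373 and 0.433 units. At 20 µE they measured 0.655, 0.890 and 1.005 units, with no overlap. Its unnormalised log2 change of -1.51 is close to the median of all 1445 tested features, -1.30, from which it differed by -0.21. After quantile normalisation the change was -0.50 ± 0.22 (SE), which missed the threshold over 12 columns (limma, adjusted p = 0.073, 95% interval -0.99 to -0.02) and over couple averages (adjusted p = 0.28, 95% interval -1.30 to 0.30). Columns 5 and 6 stood at percentiles of 48.3 and 51.3 in bright light, against 82.0 and 70.9 in dim light. The change was -0.11 once columns 5 and 6 were dropped from bright and dim alike, and in columns 3 and 4 the bright values stood slightly higher in their columns than the dim ones. The call was gained without dim column 4 (adjusted p = 0.046), and likewise on dropping columns 3 and 4 in bright and dim alike (adjusted p = 0.048).

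AT2G19280 was the listed gene that kept its deposited intensity. At 200 µE the lowest, median and highest columns measured 2.719, 2.907 and 3.412 units. At 20 µE they measured 2.774, 3.111 and 3.897 units, and the groups overlapped. Bright to dim ratios of the 6 pairs lay between 0.869 and 1.062, and 5 of 6 pairs were lower in bright light. As deposited, the log2 change was -0.10 (95% interval -0.42 to 0.22; limma, adjusted p = 0.55), which is 1.20 above the median of all features. Quantile normalisation gave -0.41 ± 0.13 (SE), past the threshold over 12 columns (adjusted p = 0.021) but not over couple averages (adjusted p = 0.21), and its call was lost on dropping, in bright and dim alike, columns 1 and 2 (adjusted p = 0.075) or columns 3 and 4 (adjusted p = 0.13). All 6 same-numbered pairs were lower after quantile normalisation, with log2 differences of -0.50 to -0.27, and blocking on that number gave an adjusted p of 0.0034 (limma). Median centring turned the sign to 1.26, past the threshold as higher (limma, adjusted p = 0.00024 for all columns and 0.022 for the couple averages). Since the sign depended on the scaling, no direction is given for this gene.

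**Figure D2:**
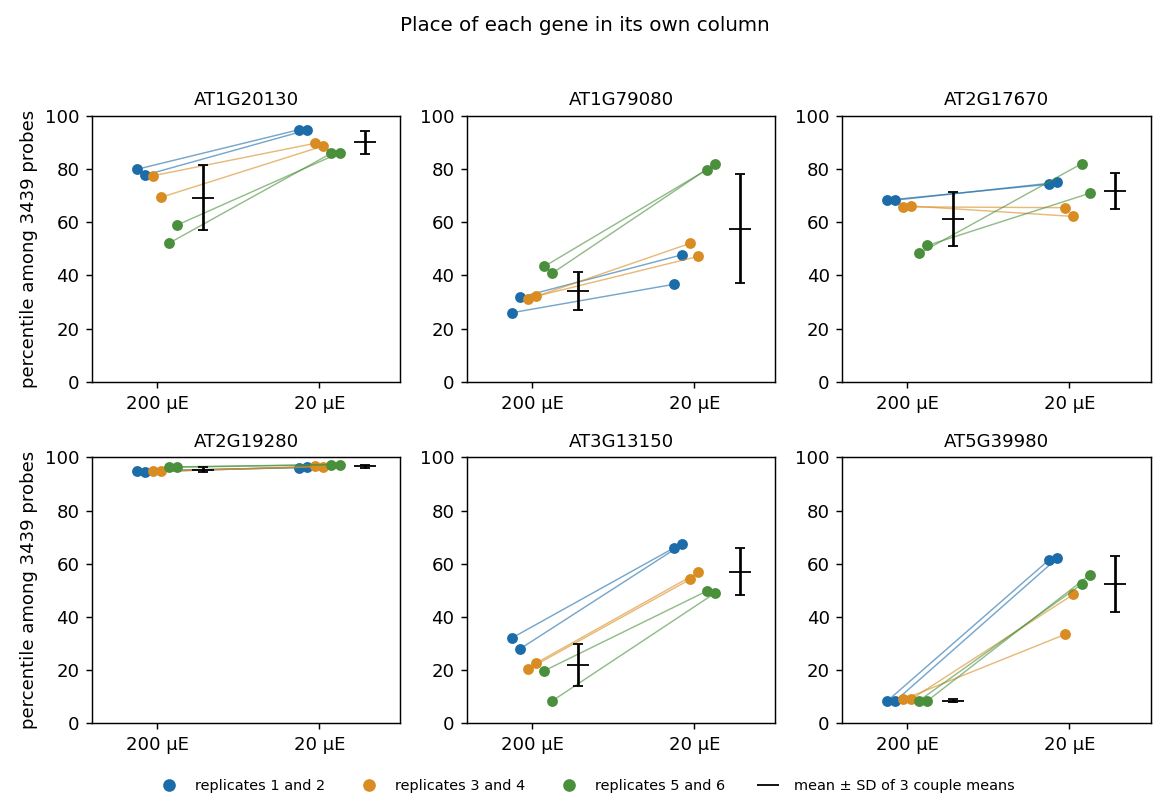
Percentile of each listed gene among the 3439 probes of its own column (vertical axis, 0 to 100) at 200 µE and at 20 µE; lines join columns of the same replicate number, colours mark couples, and black marks are the mean ± SD of 3 couple averages. AT1G20130, AT3G13150 and AT5G39980 stand lower in every bright column than in any dim one, AT2G19280 stays at or above a percentile of 94.6 in all 12 columns, and the lines of AT2G17670 run in both directions.

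Read against the whole array, the count of lower genes depended on the scale. In deposited units every bright column lay below every dim one for 5 of the 6 genes (4 of 5 without AT1G20130), where 47% of all 1445 tested features did the same. Without normalisation 5 of 6 (4 of 5 without AT1G20130) passed as lower both over 12 columns and over couple averages, against 53.6% of all features, so that the deposited count says little about these genes in particular. Set against the median of all features, the unnormalised log2 change was -3.31 for AT3G13150 (-4.60 itself), -1.45 for AT1G79080 (-2.74) and -0.63 for AT1G20130 (-1.93). Subtracting a median does not even out the wider spread of values in the bright columns. After quantile normalisation the columns were apart, with bright below dim, for 3 of 6 genes (2 of 5 without AT1G20130), against 18.5% of features.

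Over 12 quantile-normalised columns 5 of 6 genes passed as lower and 0 as higher (limma; 4 of 5 without AT1G20130), against 29.4% of features that passed as lower. In both fits together 2 of 6 passed, AT3G13150 and AT5G39980 (2 of 5 without AT1G20130), against 14.3% of features. When couples were matched as a block 3 of 6 passed as lower (2 of 5 without AT1G20130), against 15% of features. Median centring gave 3 of 6 lower (3 of 5 without AT1G20130) and 1 higher, against 31.1% and 34.9% of features. The median log2 change of the 6 genes was -1.34 after quantile normalisation, beside -0.07 for all tested features, and -2.34 without normalisation, beside -1.30. Without AT1G20130 these medians were -1.26 and -2.74.

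**Figure D3:**
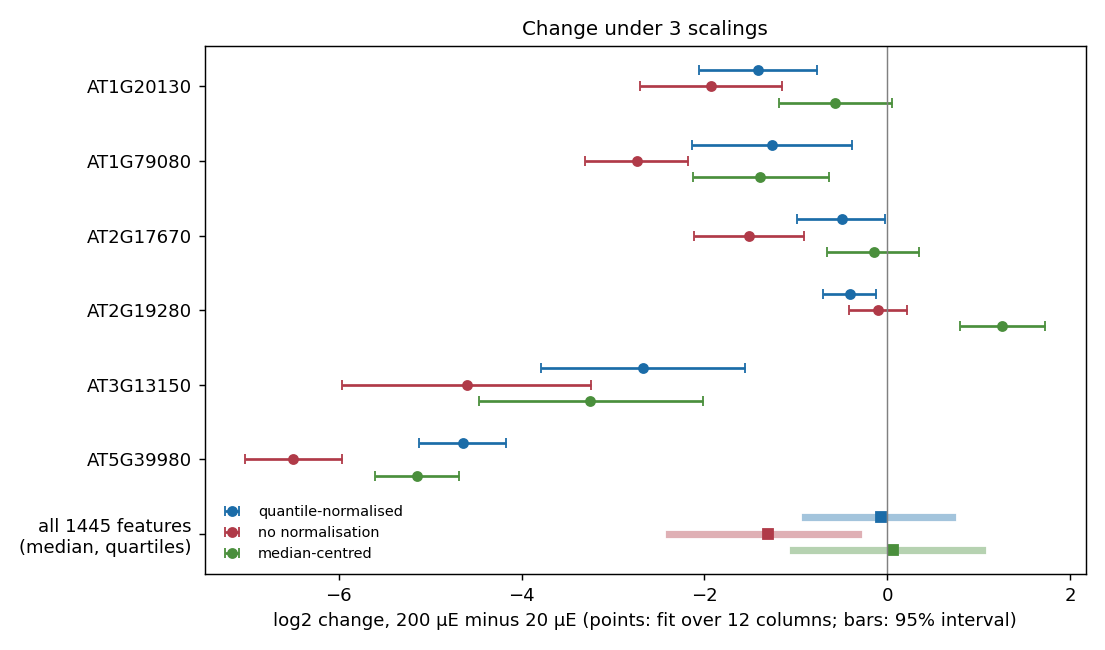
Log2 change of each listed gene, 200 µE minus 20 µE (horizontal axis), under 3 scalings; points are fits over 12 columns with their 95% interval, and the bottom rows give the median (square) and quartiles (band) of all 1445 tested features. AT1G20130, AT1G79080, AT2G17670, AT3G13150 and AT5G39980 lie below 0 under each scaling, with all 3 intervals below 0 for AT1G79080, AT3G13150 and AT5G39980, while AT2G19280 lies at -0.41, -0.10 or 1.26 according to the scaling.

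The listed genes did not vary alike among columns of the same light. Deviations from the group means, over the 12 columns, correlated at 0.891 between AT1G79080 and AT2G19280, both highest in columns 5 and 6. Those of AT1G20130 ran against both, at -0.795 with AT1G79080 and -0.867 with AT2G19280, and with those of AT3G13150 at 0.680. AT5G39980, without spread in bright light, correlated at no more than 0.341 in size with any other. The 12 points share couples of columns, so these values describe a pattern between couples.

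Among the other 640 single genes tested, the profile most like that of AT5G39980 over the 12 columns was that of AT5G63390 (Pearson r = 0.992), followed by AT5G05330 (0.990), both also lower in bright light, with log2 changes of -3.83 and -3.91. AT3G13150 was most like AT3G50180 (0.980) and AT5G01860 (0.964), AT1G20130 like AT3G44810 (0.983) and AT1G01730 (0.976), and AT2G17670 like AT5G06990 (0.871) and AT5G53620 (0.846). For AT1G79080 the nearest were AT2G39190 (0.954) and AT2G19280 (0.944), which is itself on the list, and for AT2G19280 they were AT1G68660 (0.970) and AT2G39190 (0.959). These correlations include the difference between the light levels, and the columns of a couple share their deviations.

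The lists of partner genes drawn up for this comparison had no member with a probe of its own, and organelle RNA genes outside these lists were not examined here. None of 24 further P-class PPR proteins of known function had a probe of its own (0 of 24), and PPR336 lay on a probe shared with other genes. Nor had any of the 13 genes called PPR in the reference gene table a probe of its own (0 of 13). Other proteins of organelle RNA processing and stability also lacked one (0 of 19), among them the splicing factors CAF1 and CRS1 and the nuclease RNE. So did the plastid transcription machinery (0 of 16), including the sigma factors.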

How the data were processed

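Total RNA of 12 samples was measured on arrays, 6 at 200 µE and 6 at 20 µE, and grouped by sample title. The table deposited by the authors holds intensity on a linear scale with no stated unit; the sources used here do not give the array chemistry, background correction or scaling. Column means lay between 0.814 and 1.039, and values reached at most 100. Probes were named from the platform annotation, joined by gene identifier to the TAIR10.1 gene table. No coordinates are printed, since no build is named for the array.

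Values under the 1st percentile of a column's positive values, zeros included, were set to that percentile, log2-transformed and quantile-normalised over 3439 probes. The 1445 annotated features above 0 in some column (116 others were at 0 throughout) were tested two-sided with limma 3.58.1 (R 4.3.3) for the difference 200 µE minus 20 µE. The model had no block, p-values were adjusted over all features by Benjamini and Hochberg (BH), and the threshold was 0.05. The fit was tested on simulated data with independent columns. These held no couples, no pairing by number and no zeros set to a floor, so that test does not bear on such features. Same-numbered columns of the groups deviated together (correlations 0.170 to 0.552 for 6 pairs), so the numbers were taken to pair them in the alternative fits with a block. The 2 fits used to call a fall had no block. What a number marks is not in the labels. The couples were seen in the data. Precision is limited by the number of arrays. Named were all 6 listed genes and, for each, the 2 most alike single genes; the lists had no measured member to name. The members and lists were chosen with earlier results of these data known. Alternatives covered scaling, zeros, features tested, variance, weights, threshold, pairing and leaving out columns.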

Additional observations from a re-analysis of the deposited data

How the results depend on the processing

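AT3G13150 and AT5G39980 kept their direction and passed under each alternative run on them, with log2 changes of -4.60 to -2.22 (31 alternatives, adjusted p at most 0.037) and -6.50 to -4.41 (30 alternatives, at most 0.018). AT5G39980 was not among the features kept when dim ones were left out. AT1G20130 was lower throughout (-1.93 to -0.57; adjusted p 1.4e-05 to 0.28) and lost its call in 3 of 31 alternatives, AT1G79080 likewise (-2.74 to -0.82; 1.3e-06 to 0.15) in 4, and AT2G17670 (-1.51 to -0.11; 0.00027 to 0.74) gained one in 6. The change of AT1G79080 was smallest, at -0.82, with array weights. AT2G19280 lost its call in 8 alternatives and reversed to 1.26 under median centring, for columns and couple averages alike (adjusted p 0.00024 to 0.78 over all its alternatives); the cause was not tested.

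Of the 6 listed genes, 5 passed over 12 columns, 3 at a threshold of 0.01, 2 over the couple averages, where 3 values per group replace 6 columns, and 3 when couples were matched as a block; leaving out 1 column gave 5 to 6. Of all 1445 tested features 794 passed over 12 columns, and 580 at a threshold of 0.01, 307 of them as lower. Over the couple averages 397 passed, and 393 when couples were matched as a block. When all 3174 probes and genes above 0 were tested 1703 passed, and with 1 column left out 737 to 820. The replicate number as a block gave 5 listed genes and 874 features, and changed no call of a listed gene over 12 columns. Without normalisation 112 features passed as higher and 947 as lower, against 369 and 425 after quantile normalisation and 505 and 449 after median centring. Couple averages under other scalings, and the list without AT1G20130, were added after seeing the data. Changes of values at the floor depend on where the floor is set.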

Other observations

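With the difference between light levels taken out, the single genes whose deviations over the 12 columns were most like those of the listed genes were other than those named for the whole profile, except for AT3G13150, AT2G19280 and AT5G39980. For AT3G13150 they were again AT3G50180 (Pearson r = 0.943) and AT5G01860 (0.926), for AT2G19280 they were AT1G68660 (0.940) and AT3G03890 (0.930), and for AT5G39980 they were AT4G03090 (0.921) and AT5G63390 (0.893). For AT1G79080 the nearest was SIRB, AT1G50170 (0.962), and for AT1G20130 and AT2G17670 they were AT4G22190 (0.974) and AT5G15390 (0.900). Columns of a couple share their deviations, and 640 genes were searched for each. Dixon's test at the 95% level was run on 22 sets of 6 values with any spread (deposited and normalised, by gene and light level). In 0 of them was a column far apart from the rest, where chance gives about 1 in 20 for independent values. Columns of a couple are not independent, and a column apart can be masked by its partner, so this result says little.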
